A study of Drosophila melanogaster with 2 samples.

Results

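The aminoacyl-tRNA synthetase genes of Drosophila melanogaster were examined for binding of CG10654, a protein of undescribed function that was tagged with green fluorescent protein (GFP). Members were all genes whose symbol is the 3-letter code of an amino acid followed by RS or RS-m, together with GluProRS and every symbol containing PheRS. This gave 35 genes, all protein-coding, out of 18164 annotated genes. Symbols ending in -m, for enzymes of the mitochondrion, took 15 of them, and the other 20 are called cytosolic here. Chromatin immunoprecipitation sequencing (ChIP-seq) with an antibody against GFP had been done on whole embryos of 0 to 24 h, of both sexes, from a stable transgenic line in which GFP is joined to the C-terminus of CG10654. The samples were 1 group of 2 biological replicates, with no untagged or otherwise treated group, and whole embryos of mixed stages give 1 value for all their tissues. The strain label is CG10654-GFP, and the labels do not say which promoter drives the fusion.

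Aminoacyl-tRNA synthetases join each amino acid to its transfer RNA (tRNA), which then carries it to the ribosome. The cytosolic enzymes serve translation of nuclear messages, while the mitochondrial enzymes are encoded in the nucleus, imported into the organelle and serve translation of the few messages of the mitochondrial genome. The enzymes fall into class I and class II, which have unrelated catalytic folds. GluProRS is a fusion of a class I glutamyl and a class II prolyl enzyme. Some genes with no -m counterpart, such as GlyRS and LysRS, give both the cytosolic and the mitochondrial enzyme from 1 gene in humans.

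The deposited lists give a position and a signal value for each candidate binding site. The signal value is the authors' enrichment of a peak, in units that the sources used here do not define, and the summit is the position of highest enrichment within the peak. Candidates were called from each replicate alone and from the reads of both together, the pooled reads. A shorter list held 4117 pooled candidates. It is described as filtered by the irreproducible discovery rate (IDR), which keeps peaks that rank alike in replicates. All had a pooled signal of 99.3 or more, and no other pooled candidate reached 99.3. A place in the list therefore equals a pooled signal at or above this limit. It does not show that the peak of a given gene ranked alike in both replicates. A gene was counted when a summit lay within 500 bp of 1 of its transcription start sites (TSSs), and its strongest such summit was used. A summit from the shorter list is called an IDR summit, and a gene with weaker pooled summits only is called a candidate gene.

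Sequences under summits are given for 5 members. IleRS, GluProRS and ThrRS are shown because they had the strongest IDR summits whose windows lie outside exons, ArgRS-m because it was the only mitochondrial member with an IDR summit, and LeuRS-m because its summit was the nearest below the limit of the list. They are windows of 101 bases on the strand of the gene, from the Release 6 (dm6) reference genome, with the 21 bases centred on the summit in capitals. IleRS lies at chr3L:22288467-22288567 (plus strand), GluProRS at chr3R:23958481-23958581 (minus strand), ThrRS at chr2L:12103497-12103597 (plus strand), ArgRS-m at chr3R:7886902-7887002 (plus strand) and LeuRS-m at chr3L:4825718-4825818 (plus strand). All 5 windows are intergenic.
IleRS: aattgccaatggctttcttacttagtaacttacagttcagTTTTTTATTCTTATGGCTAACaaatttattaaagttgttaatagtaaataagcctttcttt
GluProRS: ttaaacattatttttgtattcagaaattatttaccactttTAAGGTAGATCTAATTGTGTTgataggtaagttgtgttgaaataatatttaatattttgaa
ThrRS: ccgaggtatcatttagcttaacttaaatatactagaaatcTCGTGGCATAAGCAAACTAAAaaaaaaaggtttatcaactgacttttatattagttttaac
ArgRS-m: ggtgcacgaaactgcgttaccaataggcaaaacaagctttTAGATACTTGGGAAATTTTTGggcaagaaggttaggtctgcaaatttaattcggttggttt
LeuRS-m: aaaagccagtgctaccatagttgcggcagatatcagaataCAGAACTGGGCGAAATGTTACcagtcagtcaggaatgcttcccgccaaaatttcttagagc
G or C made up 25.7% of the IleRS window, 20.8% of the GluProRS window and 27.7% of the ThrRS window, against 39.6% at ArgRS-m and 45.5% at LeuRS-m.

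IDR summits lay at 11 of the 35 synthetase genes (31.4%, 95% Wilson interval 18.6 to 48.0%), beside 16.3% of all annotated genes and 19.8% of protein-coding genes. Cytosolic members held 10 of the 11. They were 10 of 20 cytosolic genes (50%, interval 29.9 to 70.1%), against 1 of 15 mitochondrial genes (6.67%, interval 1.19 to 29.8%). The cytosolic share was above the share of protein-coding genes and the mitochondrial share below it. The mitochondrial interval and the interval of all 35 members both contain the 19.8% of protein-coding genes. The difference between the compartments was not tested. The mitochondrial position depended on the library: the strongest candidates of replicate 1 alone gave 3 of 15 genes (20.0%), level with the 20.1% of protein-coding genes, and those of replicate 2 alone gave 0 of 15, which allows a share of up to 20.0%. Intervals run over genes and cover counting error only. Among members with an IDR summit the median pooled signal was 187, close to the 182 of all protein-coding genes with one.

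The strongest cytosolic summit was at SerRS, which charges the serine tRNAs, with a signal of 322 in replicate 1, 136 in replicate 2 and 454.9 in the pooled reads (2L, 3037321 to 3037561). IleRS, the isoleucyl enzyme, had 289, 141 and 430.5 in the same order (3L, 22288376 to 22288624). At GluProRS the values were 300, 122 and 425.2 (3R, 23958435 to 23958686). These 3 genes ranked 260, 303 and 316 among the 27219 pooled candidates of the whole genome, and each was within the first 500 of both replicates. ThrRS, the threonyl enzyme, followed at 209, 91.2 and 291.2 (2L, 12103352 to 12103741), ranked 733. AsnRS, the asparaginyl enzyme, had 130, 88.1 and 209.0 (2L, 19131973 to 19132362), ranked 1361, where the replicate 1 value is that of a summit at -69 bp from the TSS and the others lay at -214 bp. The order of these 5 genes by signal was not the same in both replicates: SerRS was highest in replicate 1 and IleRS in replicate 2.

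The other 5 cytosolic members with an IDR summit lay lower in the list, with pooled signals between 104.6 and 187.2. AspRS, the aspartyl enzyme, had 140 in replicate 1, 50.6 in replicate 2 and 187.2 in the pooled reads (2R, 12879754 to 12880143). beta-PheRS, 1 of the paired subunits of the cytosolic phenylalanyl enzyme, had 72.2, 66.0 and 140.0 (3R, 24252572 to 24252961). GlyRS, the glycyl enzyme, had 88.6, 36.9 and 130.9 (3L, 15094768 to 15095157). By place in each list, beta-PheRS stood lower in replicate 1 (rank 3625 of 23253) than in replicate 2 (rank 1641 of 30000), while AspRS (1357 and 2522) and GlyRS (2771 and 4055) stood lower in replicate 2. For ValRS, the valyl enzyme, the values were 75.7, 54.5 and 129.5 (2R, 13198201 to 13198590), and the replicate 2 summit lay at -220 bp from the TSS while the pooled one lay at -454 bp. The weakest was AlaRS, the alanyl enzyme, at 62.4, 38.2 and 104.6 (2L, 8381694 to 8382083), which was 5.3 above the limit. It was the only cytosolic IDR member outside the 4117 strongest candidates of replicate 1, where it ranked 4381.

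ArgRS-m, which charges the arginine tRNAs of the mitochondrion, had a signal of 92.7 in replicate 1, 22.7 in replicate 2 and 118.2 in the pooled reads (3R, 7886757 to 7887146). Its place differed between replicates, at rank 2612 of 23253 candidates in replicate 1 and rank 8180 of 30000 in replicate 2. LeuRS-m, for leucine, also stood lower in replicate 2, at 72.7 (rank 3611) in replicate 1 and 23.6 (rank 7685) in replicate 2. With 97.33 in the pooled reads, rank 4212, it was the member closest below the limit of 99.3, while the closest above it was AlaRS at 104.6. A stronger IDR summit of 397 lay at -825 bp from the LeuRS-m start site, outside the promoter window.

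**Figure D1:**
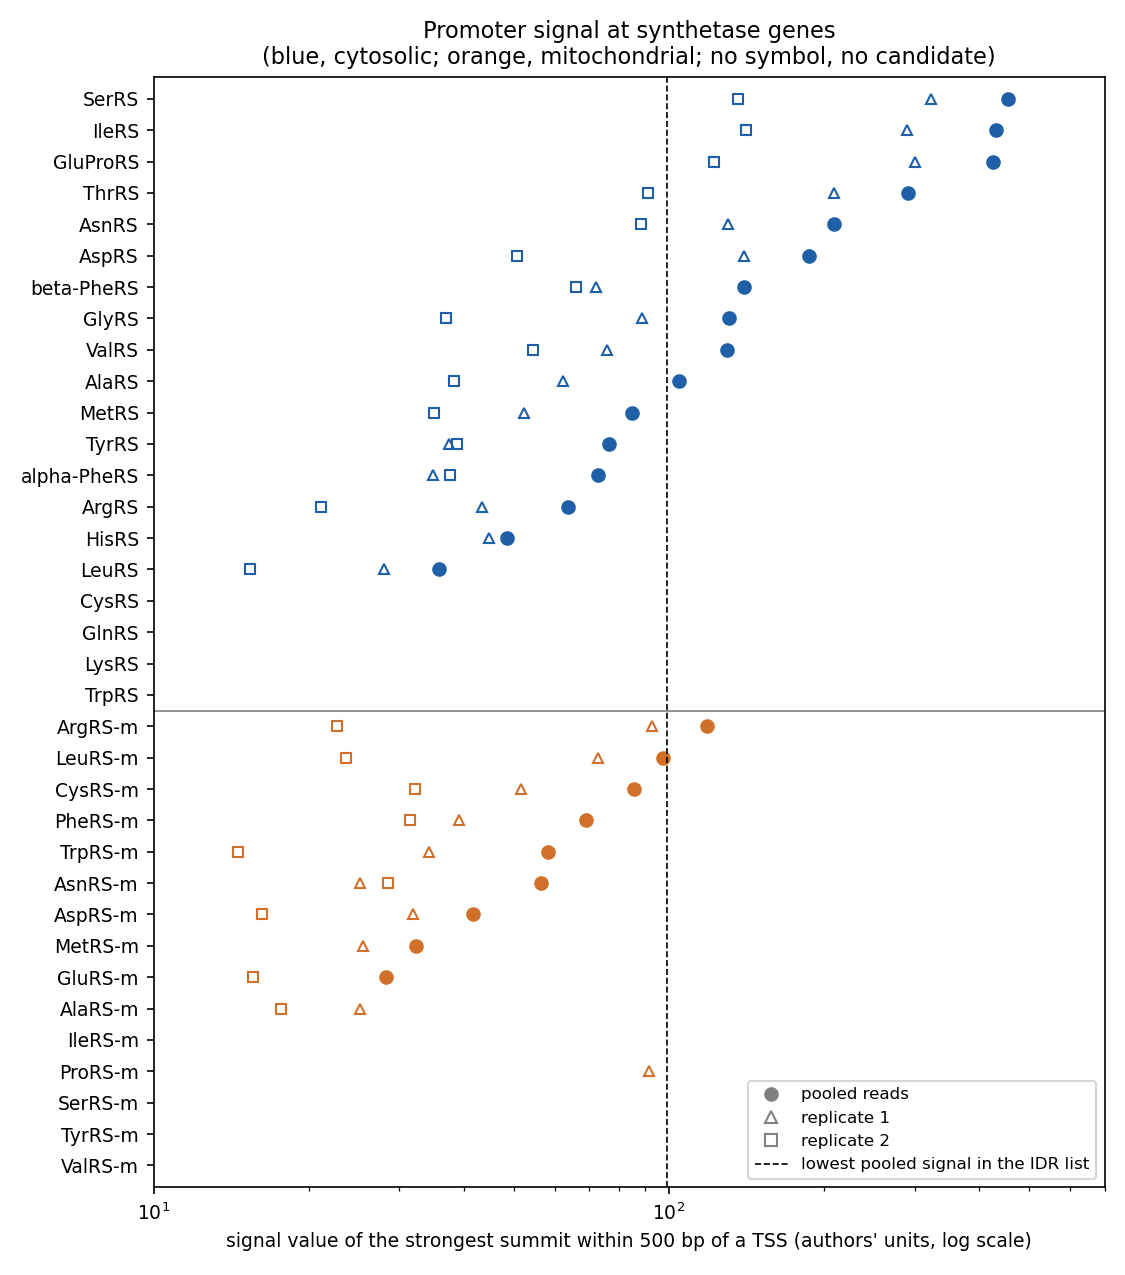
Signal value of the strongest summit within 500 bp of a TSS (authors' units, log scale) for each synthetase gene, from the pooled reads (filled circles), replicate 1 (triangles) and replicate 2 (squares), with cytosolic genes in blue above mitochondrial genes in orange; the dashed line is the lowest pooled signal of the IDR list, 99.3. The 10 cytosolic genes right of the line reach 454.9, while ArgRS-m at 118.2 is the only mitochondrial gene right of it.

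Weaker pooled candidates lay at 6 cytosolic genes and at 8 mitochondrial genes. Counting every pooled candidate, 16 of 20 cytosolic genes (80.0%, interval 58.4 to 91.9%) and 9 of 15 mitochondrial genes (60.0%, interval 35.7 to 80.2%) had a summit. The background was 50.5% of protein-coding genes and 45.3% of all genes, so the shares of the compartments lay nearer to each other at this threshold than in the IDR list. Of the genes with any pooled candidate, an IDR summit was reached by 62.5% of the cytosolic, 11.1% of the mitochondrial and 39.2% of all protein-coding genes. The median pooled signal was 130 for cytosolic genes and 58.2 for mitochondrial genes, beside 75.2 for protein-coding genes.

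The cytosolic genes below the IDR list were MetRS (84.72, the methionyl enzyme), TyrRS (76.52, tyrosyl), alpha-PheRS (72.73, the partner subunit of beta-PheRS), ArgRS (63.58, arginyl), HisRS (48.54, histidyl) and LeuRS (35.77, leucyl). TyrRS had 37.5 in replicate 1, where it ranked 8685, and 38.7 in replicate 2, where it ranked 3806. alpha-PheRS had 34.8 (rank 9793) and 37.6 (rank 3961). Both came among the 4117 strongest candidates of replicate 2 only. The subunits of 1 enzyme therefore stood on different sides of the limit, since beta-PheRS had 140.0. HisRS had a candidate of 44.7 in replicate 1 and none in replicate 2. No summit lay within 500 bp of CysRS, GlnRS, LysRS or TrpRS in any of the lists. Outside that window, LysRS had a pooled candidate of 35.19 at -555 bp and CysRS one of 32.1 at -955 bp.

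After LeuRS-m, the mitochondrial genes below the IDR list were CysRS-m (85.43), PheRS-m (68.96), TrpRS-m (58.25), AsnRS-m (56.32), AspRS-m (41.57), MetRS-m (32.27) and GluRS-m (28.28). CysRS-m, for cysteine, had 51.7 in replicate 1 and 32.1 in replicate 2, the highest replicate 2 value among mitochondrial members. The last 2 candidates, at MetRS-m and GluRS-m, lay in coding exons downstream of the TSS. IleRS-m, SerRS-m, TyrRS-m and ValRS-m had no summit within 500 bp in any list. Just outside that window, SerRS-m had a pooled candidate of 62.08 at -510 bp and TyrRS-m one of 29.69 at -639 bp. AlaRS-m had a weak candidate of 25.2 at 171 bp from the TSS in replicate 1. In replicate 2 its candidate of 17.7 lay elsewhere, at -164 bp. ProRS-m had 1 candidate in replicate 1 (91.6), and neither gene had a pooled candidate.

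**Figure D2:**
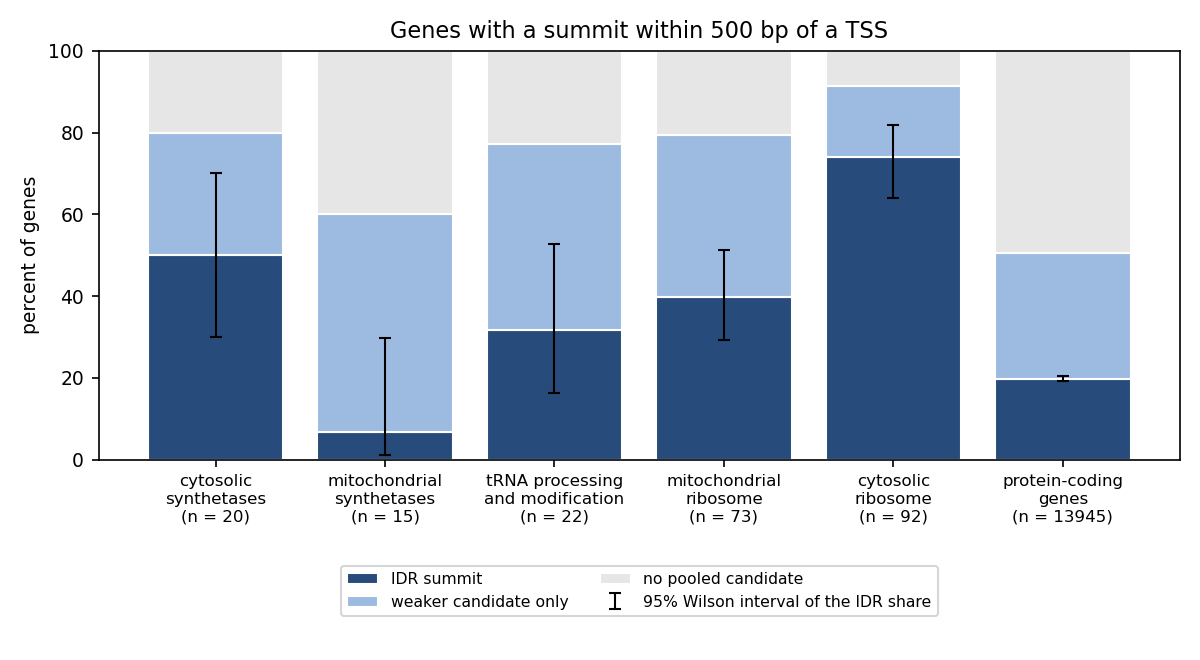
Percent of genes with an IDR summit (dark), a weaker pooled candidate only (light) or no pooled candidate (grey) within 500 bp of a TSS, for cytosolic and mitochondrial synthetase genes, 3 related lists and all protein-coding genes; bars through the dark part are 95% Wilson intervals of the IDR share. The IDR share is 50% for cytosolic and 6.67% for mitochondrial synthetase genes, beside 19.8% of protein-coding genes.

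For 12 amino acids both a cytosolic and a mitochondrial gene carried the same name, which allows a comparison by amino acid. The cytosolic gene had the higher pooled signal in 8 of the 12, namely Ala, Asn, Asp, Ile, Met, Ser, Tyr and Val. At Ile the cytosolic gene had 430.5 and the mitochondrial gene no candidate, and at Asn the values were 209.0 for AsnRS and 56.32 for AsnRS-m. The mitochondrial gene was higher for Arg (118.2 for ArgRS-m, against 63.58 for ArgRS), Leu (97.33 for LeuRS-m, against 35.77 for LeuRS), Cys and Trp. For Cys and Trp the cytosolic gene had no candidate. IDR summits lay at 6 of the 12 cytosolic and 1 of the 12 mitochondrial genes, beside 19.8% of protein-coding genes. No amino acid had one at both, and with 1 mitochondrial gene called at most 1 could have.

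By the class of the enzyme, a grouping made after the values had been seen and not tested, IDR summits lay at 7 of 10 cytosolic class II genes (70.0%, interval 39.7 to 89.2%) and at 2 of 9 cytosolic class I genes (22.2%, interval 6.32 to 54.7%), besides GluProRS, which holds both. The class I genes were IleRS and ValRS. The intervals of the classes overlap. Mitochondrial class II genes had 0 of 6 (interval 0 to 39.0%), and mitochondrial class I genes had 1 of 9. The human counterparts of GluProRS, IleRS, LeuRS, MetRS, GlnRS, LysRS, ArgRS and AspRS belong to the cytosolic multi-synthetase complex. These genes had IDR summits at 3 of 8 (37.5%, interval 13.7 to 69.4%). The other cytosolic genes had them at 7 of 12 (58.3%, interval 32.0 to 80.7%). The share of protein-coding genes was 19.8%, which lies within the intervals of the cytosolic class I genes and of the complex genes.

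The IDR summits of the synthetase genes lay upstream of the start site in 11 of 11 genes, at a median of -148 bp, and 91.2% of all protein-coding genes with an IDR summit had it upstream, at a median of -136 bp. Negative distances are upstream of the member's TSS. The range was wide, from -1 bp at SerRS to -454 bp at ValRS. Between these lay beta-PheRS (-88), ArgRS-m (-93), AlaRS (-125), GluProRS (-140), IleRS (-148), GlyRS (-179), ThrRS (-204), AsnRS (-214) and AspRS (-335). The count of 11 rests on pooled summits and on any TSS of the member. At SerRS the replicate 1 summit lay downstream, at 50 bp, and the replicate 2 summit at -9 bp. At AspRS the TSS used lies inside the gene, and so does the summit. The weaker candidates were upstream in 12 of 14 genes, at a median of -86.5 bp, against 73.0% and -88 bp for protein-coding genes with such candidates.

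Most of the synthetase summits lay between neighbouring genes and cannot be assigned to 1 of them. Another gene's TSS was within 500 bp of the summit in 9 of the 11 genes, and the member's own TSS was the nearest in 7. Taking any IDR summit of a gene, its own TSS was the nearest for 8 of the 11. The same held for 1951 of the 2763 protein-coding genes with an IDR summit. The share of all IDR summits with another gene's TSS in the window is not given here. IleRS shared its summit with Hem, ThrRS with Patsas, SerRS with CG17260, GlyRS with Plp and sstn, and ArgRS-m with CG17816. At GluProRS the nearest start was that of AP-1sigma, which encodes an adaptor subunit of vesicle transport (-120 bp, against -140 bp for GluProRS). DCTN6-p27, a dynactin subunit gene, was nearer than AsnRS (-155 against -214 bp). Nmda1 was nearer than AspRS (-151 against -335 bp), in an intron of both genes, and Kdm4B, a histone demethylase gene, was nearer than ValRS (-59 against -454 bp). A second IDR summit lay nearer to each of the last 2 members, with a signal of 160.4 at -124 bp of AspRS and of 99.74 at -220 bp of ValRS. The nearest TSS of that second summit was still another gene's at AspRS, and the member's own at ValRS. AlaRS and beta-PheRS were the 2 genes with no other TSS in the window, and the AlaRS summit fell in the 3' UTR of the neighbouring CG13392. Among the weaker candidates the summits of ArgRS, MetRS, TyrRS, alpha-PheRS, LeuRS-m and AsnRS-m were nearer to CG8578, CG15084, CG33158, CG2129, Dhc64C and ste24a. HisRS shared its weaker summit with Bx and CG6470, LeuRS with CG17593, and CysRS-m with O-fut1.

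**Figure D3:**
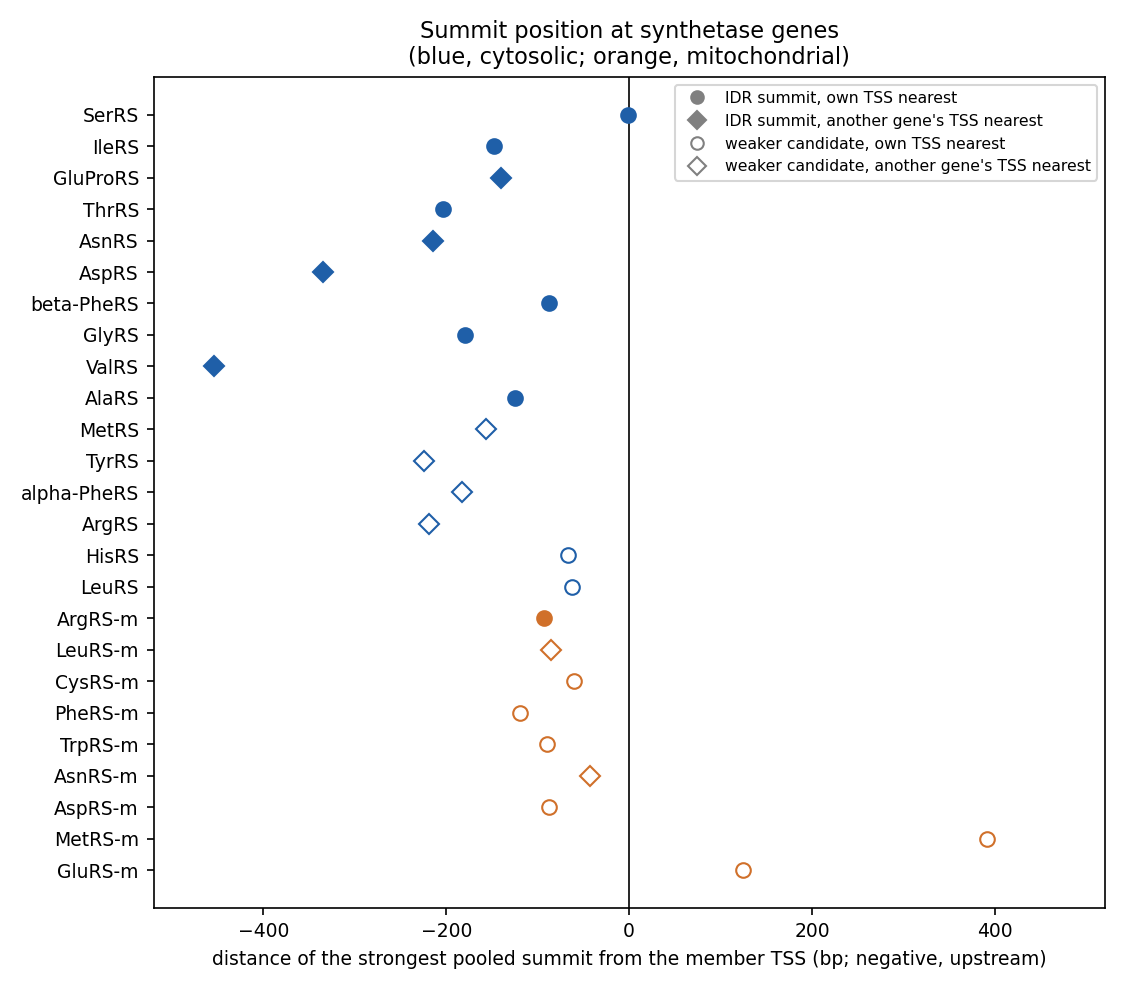
Distance in bp of the strongest pooled summit from the member's TSS, negative upstream, for the 25 synthetase genes with a pooled candidate (cytosolic in blue above mitochondrial in orange; filled for IDR summits, open for weaker candidates; diamonds where another gene's TSS is nearer). All 11 IDR summits lie left of 0, and only MetRS-m at 391 bp and GluRS-m at 125 bp lie right of it.

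The arrangement of the genes moved with the compartment. A gene starting on the opposite strand within 1000 bp and pointing away was present at 17 of 20 cytosolic members (85.0%) and at 7 of 15 mitochondrial members (46.7%), beside 36.2% of protein-coding genes. Over all protein-coding genes, those with such a partner had an IDR summit in 36.9% and those without in 10.1%. AspRS counts here by its partner Lfg at another of its TSSs than the one near its IDR summit. Among members with a partner, 8 of 17 cytosolic (47.1%) and 1 of 7 mitochondrial genes (14.3%) had an IDR summit. Among those without, 2 of 3 cytosolic genes and 0 of 8 mitochondrial genes had one, the latter count allowing a share of up to 37.5%. These counts were made after the values had been seen, and the part of gene arrangement in the difference between the compartments was not tested.

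Both replicates had a candidate within 100 bp of the summit for 10 of the 11 IDR members, the exception being ValRS in replicate 2, and for 95.6% of all 2164 IDR promoter summits. The IDR list was made from both replicates, so this match is no independent evidence. Taking instead the 4117 strongest candidates of 1 replicate at a time, the counts were 9 cytosolic and 3 mitochondrial genes in replicate 1, beside 20.1% of protein-coding genes, and 12 cytosolic and 0 mitochondrial genes in replicate 2, beside 18.7%. The 3 mitochondrial genes were ArgRS-m, LeuRS-m and ProRS-m, so the size of the difference between compartments depended on the replicate while its direction did not. A pooled candidate matched in both replicates was present at 14 cytosolic and 6 mitochondrial genes, beside 34.2% of protein-coding genes. Across the 11 IDR members the Spearman correlation of replicate 1 with replicate 2 signal was 0.727. Across the 11 candidate genes with a value in both replicates it was 0.373. Both sets were selected on the pooled reads that both replicates make up. At some members, such as AsnRS and ValRS, the values of the replicates come from different summits.

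**Figure D4:**
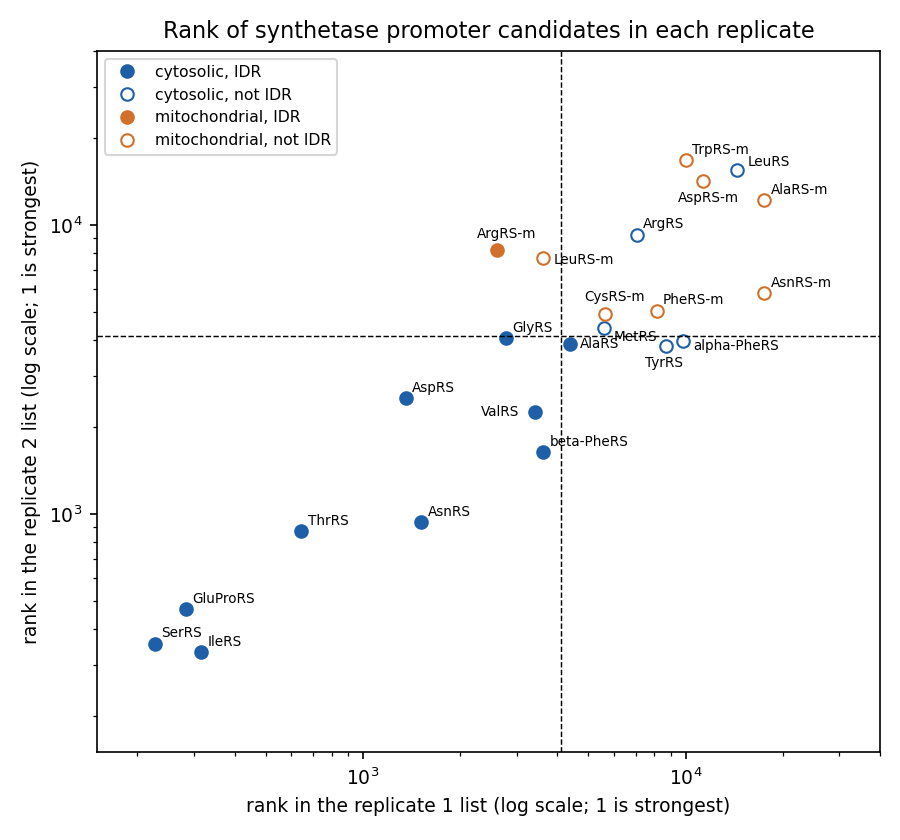
Rank of the strongest promoter candidate in replicate 1 (horizontal) and replicate 2 (vertical), both on log scales with 1 the strongest, for synthetase genes with a candidate in both (cytosolic blue, mitochondrial orange, filled for IDR summits); dashed lines are at rank 4117. SerRS, GluProRS and IleRS sit in the lower left corner, within the first 500 of both lists, and no mitochondrial gene lies below the horizontal line.

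The sequence under the IDR summits of the synthetase genes was AT-rich. Their 101-base windows had a median G or C content of 27.7% (range 20.8 to 39.6%, n = 11), beside 32.7% for all IDR promoter summits. Windows of the weaker candidates had a median of 32.2% at 6 cytosolic and 38.7% at 8 mitochondrial genes, beside 39.6% for all promoter candidates below the IDR list. The promoters themselves (250 bases before to 50 after the TSS) did not show the same order, with medians of 35.5% for cytosolic members, 33.3% for mitochondrial members and 38.0% for all protein-coding genes.

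Short words known from Drosophila promoters were counted on both strands of these windows. TATCGATA, the DNA replication-related element (DRE) recognised by Dref, occurred in 0 of 11 synthetase IDR windows, which allows a share of up to 27.3%, and in 3.37% of all IDR promoter windows. It was present in the 300-base promoters of AlaRS, ArgRS, IleRS, TrpRS and PheRS-m, beside 9.36% of all protein-coding promoters. TATAAA, the TATA box word, occurred in the windows of AsnRS, AspRS, SerRS and ThrRS, beside 21.5% of all IDR promoter windows. CGATA, which is contained in TATCGATA and is bound by the insulator protein BEAF-32, occurred at AspRS, SerRS and ValRS, beside 22.0%. GGTCACAC, the core of Motif 1, occurred at beta-PheRS, beside 1.80%. TTGCATCA, a core of the element through which ATF4 acts on amino acid response genes in mammals, was in 0 of 11 windows and in none of the 35 promoters, beside 0.185% of windows and 0.817% of promoters. Among the windows of the 14 weaker candidates it was in 1, at GluRS-m, beside 0.347% of the windows of all weaker promoter candidates. The summit of that window lies in a coding exon of GluRS-m, and its pooled signal of 28.28 was the lowest of the 14. Of the remaining words, GGTATT was found at SerRS, beside 7.39% of all IDR promoter windows, and CAGCNCTG at ValRS, beside 3.93%. CACGTG and GAGAG were in 0 of the 11 windows, beside 0.832% and 7.72%, and each 0 allows a share of up to 27.3%. A word present or absent in a window is a description and says nothing of the protein that binds it.

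Other genes of tRNA charging and use were set beside the synthetases. Among 8 accessory genes of charging, GatA, a subunit of the amidotransferase that makes mitochondrial glutaminyl-tRNA, had an IDR summit (153 in replicate 1, 68.4 in replicate 2, pooled 226). AIMP1, a scaffold of the synthetase complex, Slimp, a relative of SerRS-m, and GatC had weaker candidates of 58.1, 63.2 and 59.2. AIMP2, AIMP3, GatB and CG1750, which encodes a methionyl-tRNA formyltransferase, had no pooled candidate. Of 22 genes of tRNA processing and modification 7 had an IDR summit (31.8%, interval 16.4 to 52.7%), led by Tcs5 (1340), Trmt6 (516) and Trmt61 (228). This interval contains the 19.8% of protein-coding genes, and the 1 of 8 accessory genes (12.5%) was below that share. Trmt6 and Trmt61 encode the paired subunits of a tRNA methyltransferase.

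Elongation factors and ribosomal proteins also have cytosolic and mitochondrial forms. Cytosolic elongation factors had IDR summits at 3 of 6 genes (eEF1gamma at 485, eEF1alpha1 at 276 and eEF2 at 205). Mitochondrial elongation factors had them at 0 of 4. mEFTu1, mEFTs and mEFG1 had weaker candidates. Over all protein-coding genes 19.8% had an IDR summit. The intervals of the cytosolic (18.8 to 81.2%) and mitochondrial (0 to 49.0%) elongation factors both contain that share. Cytosolic ribosomal protein genes had IDR summits at 68 of 92 (73.9%, interval 64.1 to 81.8%), with RpS27, RpL7 and RpL23A highest, and mitochondrial ribosomal protein genes at 29 of 73 (39.7%, interval 29.3 to 51.2%), with mRpL41, mRpS10 and mRpS23 highest. The share of the mitochondrial synthetases, 6.67%, was below that of the mitochondrial ribosomal proteins, and that of the cytosolic synthetases, 50%, was below that of the cytosolic ribosomal proteins. Neither difference was tested. Of 4 genes of the response to uncharged tRNA, Thor, which encodes the translation repressor 4E-BP, had 135 and crc, the fly ATF4, had 109, both IDR summits. The interval of these 2 of 4 genes, 15.0 to 85.0%, also contains the share of protein-coding genes. Gcn2, the kinase that senses uncharged tRNA, had a candidate of 93.7 and PPP1R15 one of 58.4. CG10654 itself had a weak candidate of 34.6, at -28 bp from its TSS.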

How the data were processed

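The authors deposited peak lists, not reads: candidates from each replicate alone and from both pooled, and a list filtered by IDR, per the file descriptions. The signal value is the authors' enrichment per peak on an unstated scale and was used to rank peaks within a list. The peak positions (dm6) and the summit offsets were used as deposited. Software, versions and the IDR setting were not given in the sources used here, and the depth in reads is unknown. The control that the labels name as possible was not analysed here. The replicate 1 list held 23253 candidates and the replicate 2 list 30000, possibly a set limit.

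Summits (1-based) were assigned to every gene with an annotated TSS within 500 bp (Ensembl release 115, FlyBase 6.54; transposable elements left out; arms 2L, 2R, 3L, 3R, 4 and X). Assignment was tested on simulated peaks. Sequences came from the RefSeq copy of the Release 6 genome, whose coordinates were checked by the start codons of all 35 members (35 were ATG). Shares carry 95% Wilson intervals, from Python 3.11.15, pandas 2.3.3, numpy 2.4.6 and scipy 1.17.1. An upper limit for a count of 0, where no Wilson interval is given, is 3 counts of the total, which is too wide at the smallest totals. Both cover counting error only. No test was made over members, which are genes and not replicates.

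The members, related lists and words were chosen with earlier results of these data known. Named are all members, genes sharing a member's summit, the 3 highest IDR members of each related list and CG10654; the other related genes were added after their values were seen. The symbols eEF3, mEFG2 and Asns matched no gene. Sequences from 2R and from exons are not shown.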

Additional observations from a re-analysis of the deposited data

How the results depend on the processing

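The count of 11 synthetase genes with an IDR summit was 11 with a 250 bp window (beside 15.8% of protein-coding genes), 12 with 1000 bp (22.6%), 8 when a summit counted for the nearest TSS only (14.0%), and 12 from the strongest candidates of either replicate alone (18.7% without replicate 1, 20.1% without replicate 2). The 2058 strongest IDR peaks left 6 genes, all 6 cytosolic and 0 mitochondrial (beside 11.4%). The mitochondrial count of 1 was 2 with a 1000 bp window, by the addition of LeuRS-m. From 1 replicate at a time it ranged from 0 to 3: without replicate 1 it was 0, which allows a share of up to 20.0%, and without replicate 2 it was 3. The cytosolic count ranged from 9 to 12 in the same way. The median summit distance of -148 bp ranged from -202 to -142.5 bp over the same alternatives. Keeping the 9 members with no other gene's TSS within 1000 bp was a choice made after seeing the data. It left 1 gene with an IDR summit, the 1 cytosolic member kept (beta-PheRS). Mitochondrial members had 0 of 8, which allows a share of up to 37.5%. The share of protein-coding genes under the same choice is not given here. Those with no divergent partner, a looser choice, had an IDR summit in 10.1%. Of 35 alternatives 25 moved a value by less than 1.5 times or less than the spread between replicates, 10 moved it further and 0 turned the sign of the median distance. No paired analysis was possible because there was 1 group. The number of peaks, the undefined signal scale and the unknown read depth limit the precision, and a gene without a candidate may lie below what these lists could detect.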

Other observations

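Spacing between a member and its divergent partner differed with the call, a description made after the values had been seen and not tested. The 9 members with a partner and an IDR summit had a median gap between start sites of 369 bp (range 8 to 513 bp), against 168 bp (35 to 561 bp) at the 15 members with a partner and no IDR summit. AspRS is among the 9 by its gap of 38 bp to Lfg, although its IDR summit lay at another of its TSSs, near Nmda1. Members with a gap of 1 to 100 bp had IDR summits at 2 of 6 (AspRS and SerRS), beside 29.4% of protein-coding genes. IDR summits lay at 6 of 8 members with a gap of 301 to 600 bp (AsnRS, GlyRS, IleRS, ThrRS, ValRS and ArgRS-m, against ArgRS and HisRS), beside 43.4% of all protein-coding genes with such a gap. Members with a gap of 101 to 200 bp (GlnRS, TrpRS, CysRS-m and LeuRS-m) had 0 of 4, which allows a share of up to 75%, beside 29.3% of protein-coding genes. In the bin of 201 to 300 bp, which had the highest share over all protein-coding genes (54.3%), 1 of 6 members had an IDR summit.

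The candidate at ProRS-m was unusual among strong candidates of replicate 1. Of the 2658 candidates of replicate 1 with a signal of 91.6 or more, 7 had no pooled candidate within 500 bp, and 5 of these 7 had none in replicate 2 either. ProRS-m, which had neither, was 1 of the 5. Whether the pooled list used here is complete at such places was not tested.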
